A study of Mus musculus with 12 samples.

Results

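The genes described here are 9 regulators of interferon signaling, Stat2, Irf1, Irf7, Irf8, Irf9, Socs1, Socs3, Jak1 and Jak2, of the 23420 genes of a deposited table of raw counts. They were chosen by name for their place in the pathway, with earlier results of these data known. RNA was sequenced from 12 B16-F10 tumors, a mouse melanoma line grown under the skin of male C57BL/6J mice, with 3 tumors in each of 4 groups. Nonobese mice had received a control diet and obese mice a Western diet with added cholesterol for 15 weeks, and within each diet the mice were given either the anti–PD-1 antibody 29F.1A12 or the isotype control antibody 2A3 at 10 mg/kg. All 4 groups thus carried the same tumor line in males of the same strain, and each library came from a piece of whole tumor, so tumor cells, stroma and infiltrating leukocytes were read together. The Western diet began when mice were 4 to 5 weeks old, and the tumors were taken at day 16. Which tumors shared a cage or a litter was not given in the sources used here.

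Interferons bind receptors whose cytoplasmic tails carry Janus kinases. Type I and type III interferons lead to a complex of phosphorylated STAT proteins with Irf9, which binds the interferon-stimulated response element (ISRE), whereas interferon gamma signals through Jak1 and Jak2 to a STAT dimer that binds the gamma-activated site (GAS). Several of the genes that these elements serve encode regulators of the same pathway: transcription factors such as Irf1, Irf7 and Irf8 carry the signal on, and the SOCS proteins dampen it.

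All 9 genes passed the filter on low counts, which 13095 genes passed in all. The library totals lay between 14022929 and 33871843 counts. The melanoma markers summed to between 24720 and 30283 CPM, the usual scale of counts relative to library size, in every tumor, and no melanoma marker of 7 passed the thresholds in any of the 5 comparisons made. The tumor cells were placed in the right flank of each mouse, and the tumors of a group are taken to come from separate mice, whose spread the p-values measure. In whole tumor RNA, fewer cells of a type and less RNA per cell cannot be told apart.

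The promoter sequences of the 9 genes were searched because the letters of both elements are known for this pathway. The windows were the 250 bases upstream of each RefSeq start site in GRCm38.p6 (mm10), and all 9 genes matched, with 12 windows. The GAS was searched as TTCNNNGAA, which reads the same on both strands, and the core of the ISRE as GAAANNGAA on one strand or TTCNNTTTC on the other. A GAS stood in 7.02% and an ISRE core in 7.13% of the 32851 windows of all genes, and either of them in 13.4%. Counted by gene, 8.13% of 27025 genes had a window with a GAS, 8.18% one with an ISRE core and 15.3% one with either. Of the 9 genes, 3 (Irf1, Irf8 and Socs3) held a GAS and 2 (Stat2 and Socs1) an ISRE core, 5 in all, each in a single window, or 5 of the 12 windows. The 4 windows shown are those with a match outside the GENCODE gene model, printed 5′ to 3′ on the strand of the gene with the matches in capitals:
Irf1, chr11:53769764-53770013, plus strand: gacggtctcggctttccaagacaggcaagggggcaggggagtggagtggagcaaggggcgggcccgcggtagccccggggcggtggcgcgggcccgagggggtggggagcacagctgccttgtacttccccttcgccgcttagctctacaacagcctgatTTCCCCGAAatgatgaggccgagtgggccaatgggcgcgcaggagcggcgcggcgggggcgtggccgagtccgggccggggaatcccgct
Irf8, chr8:120736108-120736357, plus strand: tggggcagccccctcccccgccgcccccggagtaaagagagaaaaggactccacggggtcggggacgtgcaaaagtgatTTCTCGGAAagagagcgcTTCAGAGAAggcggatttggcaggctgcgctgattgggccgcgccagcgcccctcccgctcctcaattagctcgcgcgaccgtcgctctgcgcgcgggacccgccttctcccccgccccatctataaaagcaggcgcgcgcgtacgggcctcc
Stat2, chr10:128270248-128270497, plus strand: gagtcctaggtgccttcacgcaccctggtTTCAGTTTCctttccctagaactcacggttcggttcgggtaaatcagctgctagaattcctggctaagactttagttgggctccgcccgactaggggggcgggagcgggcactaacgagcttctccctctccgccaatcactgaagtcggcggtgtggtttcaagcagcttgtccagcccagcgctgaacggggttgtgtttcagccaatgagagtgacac
Socs1, chr16:10785537-10785786, minus strand: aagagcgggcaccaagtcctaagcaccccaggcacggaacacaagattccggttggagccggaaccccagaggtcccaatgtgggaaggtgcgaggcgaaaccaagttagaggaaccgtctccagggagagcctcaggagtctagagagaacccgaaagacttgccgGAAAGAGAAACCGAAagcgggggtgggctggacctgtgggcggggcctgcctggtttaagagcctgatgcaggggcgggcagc

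In Irf1 the single GAS, TTCCCCGAA, lay 90 to 82 bases before the start site. Irf8 held 2 of them, TTCTCGGAA at 171 to 163 bases and TTCAGAGAA at 153 to 145 bases before the start site. In Stat2 the ISRE core stood on the reverse strand at 221 to 213 bases, and in Socs1 a pair of cores, at 83 to 75 and at 77 to 69 bases, shared 3 bases. Socs3 had TTCTTAGAA at 154 to 146 bases before its RefSeq start site. No match to these letters lay in the windows of Irf7, Irf9, Jak1 or Jak2. A match describes letters only, and binding was not measured.

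The kinases and the transcription factors differed widely in level. To compare genes, CPM was divided by the length of all annotated exons of the gene (GENCODE mouse release M21, GRCm38), in kilobases. In nonobese isotype tumors, Jak1, the kinase shared by the receptors of all 3 interferon types, led with 19.1 ± 1.51 CPM per kb (SD, n = 3). It was followed by Irf1 with 6.31 ± 0.408, Jak2 with 6.29 ± 0.668, Stat2 with 4.49 ± 0.251, Socs3 with 4.45 ± 0.566, Irf9 with 4.30 ± 0.421, Irf7 with 3.29 ± 1.11, Irf8 with 1.36 ± 0.380 and Socs1 with 0.367 ± 0.176 CPM per kb (each SD, n = 3). In this order the tumors of Irf1 and Jak2 overlapped, as did those of Stat2, Socs3 and Irf9, and no other neighbors overlapped, although the means of Irf9 and Irf7 lay apart by less than the SD of Irf7. In obese anti–PD-1 tumors Irf1 reached 14.7 ± 8.88 CPM per kb (SD, n = 3), second to Jak1 at 20.6 ± 1.67 (SD, n = 3), although the range of Irf1, from 5.69 to 23.5, included that of Jak1.

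Socs1, an inhibitor that binds and blocks the Janus kinases, was read with few counts, from 8 to 42 per tumor. An exact Poisson interval at 95% for the lowest count ran from 3.45 to 15.8 and for the highest from 30.3 to 56.8, and such intervals cover counting error only. The other 8 genes had at least 60 counts in every tumor.

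**Figure D1:**
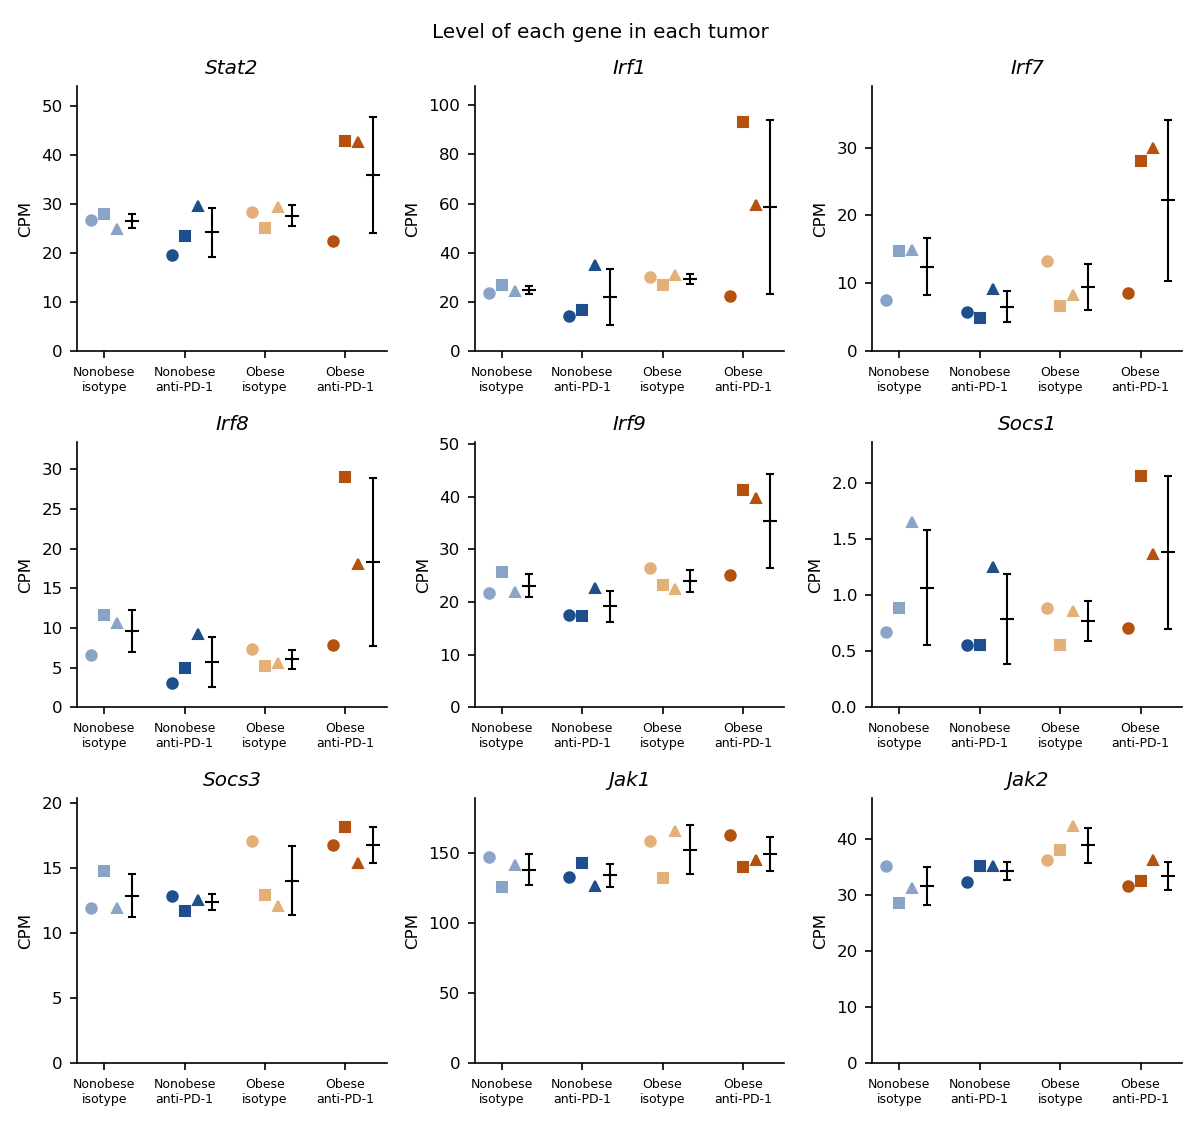
CPM of the 9 genes in each of the 12 tumors by group, on linear axes from 0. Circles, squares and triangles are tumors 1, 2 and 3 of a group, and bars give the mean ± SD (n = 3). In 6 of the panels (Stat2, Irf1, Irf7, Irf8, Irf9 and Socs1), obese anti–PD-1 tumors 2 and 3 lie above all obese isotype tumors, and tumor 1 lies close to the isotype tumors.

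Of the 4 IRF genes, 3 were higher in obese mice that received anti–PD-1. A gene was called changed when its fold change exceeded 2 with an unadjusted P below 0.05 in edgeR's quasi-likelihood test, the thresholds that the study used, and the false discovery rate (FDR, Benjamini-Hochberg over all genes tested) is given beside it. By this rule Irf1, Irf7 and Irf8 rose, no gene of the 9 fell, and none had an FDR below 0.05. Over all genes tested, 2.24% were called higher and 0.206% lower in the same comparison, and no gene of the 13095 had an FDR below 0.05. At an unadjusted P below 0.05 in either direction stood 4 of the 9 genes, against 7.57% of all genes. The median log2 fold change of the 9 was 0.56, and that of all genes tested was -0.01.

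Irf8, a transcription factor of macrophages, dendritic cells and B cells (ENSMUSG00000041515, chr8:120736358-120756694), measured 7.32, 5.18 and 5.59 CPM in the obese isotype tumors and 7.83, 29.1 and 18.1 CPM in obese anti–PD-1 tumors 1 to 3. The treated tumors all lay above the isotype tumors, tumor 1 by a narrow margin and tumors 2 and 3 at 4.82 and 3.0 times the isotype mean. The log2 fold change was 1.60 ± 0.44 (SE), with an edgeR FDR of 0.286. Irf8 was the only one of the 9 genes whose obese groups did not overlap in the upward direction, as 5.45% of all genes tested also did.

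Irf7, which amplifies the type I interferon response (chr7:141262706-141266481), measured 13.3, 6.71 and 8.36 CPM in obese isotype tumors and 8.60, 28.0 and 30.0 CPM with anti–PD-1. Treated tumors 2 and 3 stood well above the isotype tumors, whereas tumor 1 lay among them. The log2 fold change was 1.23 ± 0.42 (SE; edgeR FDR = 0.473). It lost the call without obese isotype tumor 2 (log2 fold change 1.05, edgeR FDR = 0.857), where it missed the P threshold, and without obese anti–PD-1 tumor 3 (0.97, edgeR FDR = 0.997).

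Irf1, induced by interferon gamma and an activator of antigen presentation genes (chr11:53770014-53778374), measured 30.1, 26.9 and 30.8 CPM in obese isotype tumors and 22.6, 93.3 and 59.4 CPM with anti–PD-1. Here too the groups overlapped, since treated tumor 1 had the lowest level of the 6 and tumor 2 the highest. The log2 fold change was 1.00 ± 0.40 (SE; edgeR FDR = 0.561), just past the fold threshold. Without obese anti–PD-1 tumor 2 it was 0.51 (edgeR FDR = 0.948), and the call was also lost without obese isotype tumor 1 (1.04, edgeR FDR = 0.603) or tumor 2 (0.96, edgeR FDR = 0.857). It was lost as well with the replicate number as a block (0.87, edgeR FDR = 0.596) and under a robust prior (1.00, edgeR FDR = 0.681).

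Irf9 and Stat2 encode partners in the complex that binds the ISRE. Irf9 (chr14:55603571-55610030) measured 26.4, 23.2 and 22.4 CPM in obese isotype tumors and 25.1, 41.4 and 39.8 CPM with anti–PD-1, with a log2 fold change of 0.56 ± 0.18 (SE; edgeR FDR = 0.412). The fold change of 1.48 stayed under the threshold of 2 although its FDR was smaller than those of Irf1 and Irf7. Stat2 (chr10:128270559-128292849) measured 28.4, 25.3 and 29.4 CPM in obese isotype tumors and 22.4, 42.9 and 42.7 CPM with anti–PD-1 (log2 fold change 0.38 ± 0.21 SE, edgeR FDR = 0.701). For both genes tumors 2 and 3 lay above every isotype tumor, and tumor 1 lay within the isotype range for Irf9 and below it for Stat2.

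Neither SOCS gene was called in obese mice. Socs1 (chr16:10782240-10785536) measured 0.883, 0.560 and 0.859 CPM with isotype and 0.705, 2.07 and 1.37 CPM with anti–PD-1, a log2 fold change of 0.84 ± 0.51 (SE) whose 95% interval ran from -0.26 to 1.95. Socs3, an inhibitor induced by cytokines such as IL-6 (chr11:117966079-117970047), measured 17.04, 12.9 and 12.03 CPM with isotype and 16.7, 18.1 and 15.4 CPM with anti–PD-1, a log2 fold change of 0.26 (95% interval -0.09 to 0.60). The groups overlapped for both genes. Without obese anti–PD-1 tumor 1 Socs1 passed the thresholds, at a log2 fold change of 1.16 (edgeR FDR = 0.561).

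The kinases varied little. Jak1 (chr4:101152367-101265282) measured 158.0, 132.2 and 165.6 CPM in obese isotype tumors and 162.9, 140.1 and 144.5 CPM with anti–PD-1, and its log2 fold change of -0.03 had a 95% interval from -0.27 to 0.21. Jak2 (chr19:29251828-29313080) measured 36.2, 38.0 and 42.3 CPM with isotype and 31.6, 32.4 and 36.2 CPM with anti–PD-1, a log2 fold change of -0.22 (95% interval -0.46 to 0.03). A change of Jak1 by the fold threshold of 2 lay outside these intervals in both directions, and the same held for Jak2.

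Most of the obese response came from tumors 2 and 3. Obese anti–PD-1 tumor 2 lay above all isotype tumors of its diet for 7 of the 9 genes and tumor 3 for 6, whereas tumor 1 did so for 1 gene, Irf8, lay within the isotype range for 5 and below it for 3. Tumor 1 was also among the shallower libraries, with 14466484 counts. Leaving it out raised the log2 fold change of Irf8 to 1.98, of Irf7 to 1.62 and of Irf1 to 1.40.

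**Figure D2:**
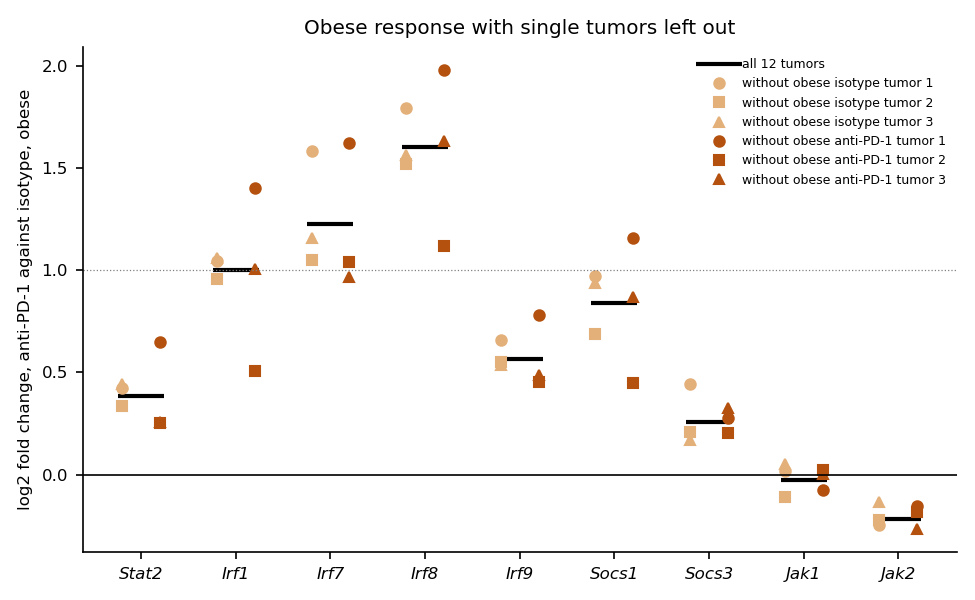
Log2 fold change of each gene between anti–PD-1 and isotype tumors of obese mice, from the fit to all 12 tumors (black bars) and with each of the 6 obese tumors left out (symbols). The dotted line marks a fold change of 2. Irf8 stays above the line in each of these fits, and Irf1 falls to 0.51 without anti–PD-1 tumor 2.

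In nonobese mice anti–PD-1 changed none of the 9 genes by the same rule, against 0.115% of all genes called higher and 2.31% lower. The point estimate was below 0 for 8 of the 9, with a median log2 fold change of -0.18 against 0.02 over all genes tested. One gene of the 9 had an unadjusted P below 0.05, against 5.23% of all genes, and the groups did not separate for any of them in either direction, against 5.81% of all genes upward and 5.37% downward.

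That gene was Irf7, with 7.61, 14.8 and 14.9 CPM in nonobese isotype tumors and 5.74, 4.89 and 9.14 CPM with anti–PD-1. Its log2 fold change of -0.92 ± 0.42 (SE; edgeR FDR = 0.929) did not reach the fold threshold, and the groups overlapped because isotype tumor 1 lay below treated tumor 3. Leaving out either of these tumors brought a call, with a log2 fold change of -1.17 without nonobese isotype tumor 1 (edgeR FDR = 0.496) and -1.25 without nonobese anti–PD-1 tumor 3 (edgeR FDR = 0.734).

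Irf8 measured 6.55, 11.6 and 10.6 CPM with isotype and 3.05, 4.98 and 9.19 CPM with anti–PD-1 in nonobese mice (log2 fold change -0.74 ± 0.43 SE, edgeR FDR = 0.929). Irf1 measured 23.7, 26.9 and 24.7 CPM with isotype and 14.3, 16.9 and 35.2 CPM with anti–PD-1 (log2 fold change -0.18 ± 0.40 SE, edgeR FDR = 0.968). In both genes nonobese anti–PD-1 tumor 3 was the highest treated tumor, and for Irf1 it exceeded every isotype tumor. Without that tumor Irf8 was called lower, at -1.26 (edgeR FDR = 0.732).

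The other 6 genes were not called in nonobese mice either. Irf9 went from 21.7, 25.7 and 21.98 CPM with isotype to 17.6, 17.4 and 22.6 CPM with anti–PD-1, and Stat2 from 26.8, 28.0 and 25.0 to 19.6, 23.6 and 29.6 CPM. Socs1 measured 0.674, 0.882 and 1.65 CPM against 0.559, 0.557 and 1.25 CPM, and Socs3 11.9, 14.8 and 11.9 CPM against 12.9, 11.7 and 12.5 CPM. Jak1 measured 146.6, 125.6 and 141.1 CPM with isotype and 132.7, 142.6 and 125.9 CPM with anti–PD-1, and Jak2 35.2, 28.5 and 31.2 CPM against 32.3, 35.1 and 35.1 CPM. The groups of all 6 genes overlapped, and their log2 fold changes lay between -0.41 (Socs1) and 0.11 (Jak2).

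The 2 responses were then compared directly, as the obese response minus the nonobese response in one model. Irf7 and Irf8 were called, with differences of 2.14 ± 0.60 (SE, log2; edgeR FDR = 0.168) and 2.34 ± 0.62 (edgeR FDR = 0.142). Of all genes tested 4.93% were called higher and 0.832% lower in this comparison, no gene had an FDR below 0.05, and 12.9% had an unadjusted P below 0.05, as did 3 of the 9. The third was Irf9, with a difference of 0.84 ± 0.25 (edgeR FDR = 0.190). Irf1 missed the P threshold with a difference of 1.18 (95% interval -0.02 to 2.38, edgeR FDR = 0.399) and passed it under several other settings.

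For the remaining 5 genes no difference between the responses was called. The intervals at 95% ran from -0.13 to 1.16 for Stat2, from -0.30 to 2.81 for Socs1, from -0.16 to 0.80 for Socs3, from -0.32 to 0.35 for Jak1 and from -0.67 to 0.01 for Jak2. The interval of Socs1 was wide enough to hold both no difference and one as large as that of Irf8. Without obese anti–PD-1 tumor 1, or without nonobese anti–PD-1 tumor 3, 5 of the 9 genes were called higher in this comparison (Irf1, Irf7, Irf8, Irf9 and Socs1).

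**Figure D3:**
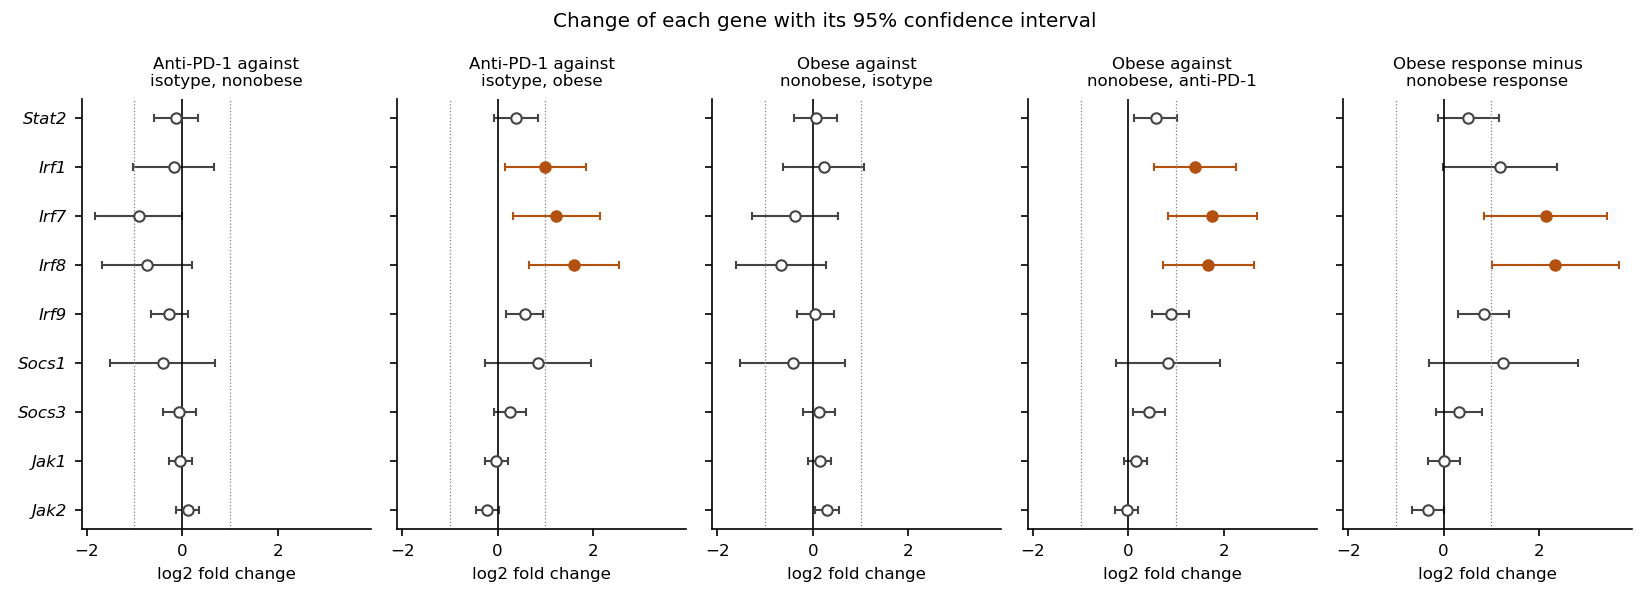
Log2 fold change of the 9 genes with 95% confidence intervals in the 5 comparisons (edgeR, 12 tumors). Filled points passed a fold change of 2 and an unadjusted P of 0.05, and dotted lines mark the fold threshold. Irf7 and Irf8 are filled in 3 panels, and the points of Jak1 lie near 0 throughout. Those of Jak2 run from -0.33 in the difference to 0.30 between the isotype groups, where the interval lies above 0.

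Without anti–PD-1, few differences went with diet. Between obese and nonobese isotype tumors none of the 9 was called, against 0.244% of all genes higher and 1.12% lower. Jak2 alone had an unadjusted P below 0.05 (1 of 9, against 13.3% of all genes), with a log2 fold change of 0.30 ± 0.11 (SE; edgeR FDR = 0.314). The 3 obese isotype tumors, at 36.2 to 42.3 CPM, lay above the 3 nonobese ones, at 28.5 to 35.2 CPM, a separation shown upward by 10.4% of all genes. Irf8 had the lowest estimate at -0.66 (95% interval -1.60 to 0.28), and Irf7 stood at -0.38 (-1.28 to 0.52). Irf1, Irf9, Stat2, Socs3 and Jak1 lay between 0.05 and 0.22, and Socs1 at -0.43.

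Between obese and nonobese tumors that had received anti–PD-1, 3 of the 9 genes were higher and none lower, against 3.69% and 0.565% of all genes. This comparison reuses the treated tumors of the previous ones and is no separate evidence. The log2 fold changes were 1.41 ± 0.40 (SE) for Irf1, 1.76 ± 0.43 for Irf7 and 1.68 ± 0.44 for Irf8, with edgeR FDR values of 0.176, 0.108 and 0.142. An unadjusted P below 0.05 was found for 6 of the 9 genes, against 10.3% of all genes, and 50 genes of the whole table, none of the 9 among them, had an FDR below 0.05.

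Groups that did not overlap were seen for Irf9 and Socs3, against 6.54% of all genes upward. Irf9 was higher by 0.89 ± 0.18 (SE, log2), with the smallest FDR of the 9 (edgeR FDR = 0.0563) and a fold change of 1.85. Socs3 was 0.44 ± 0.16 higher (edgeR FDR = 0.334), and Stat2 0.57 ± 0.21 (edgeR FDR = 0.344). Without obese anti–PD-1 tumor 1 the log2 fold change of Irf9 was 1.09 with an edgeR FDR of 0.00413, and 5 genes were called. The same number was called without nonobese anti–PD-1 tumor 3, where Irf9 stood at 1.05 with an edgeR FDR of 0.0278. With single tumors left out, the log2 fold change of Irf9 ran from 0.76 to 1.09. Over the 21 alternatives listed at the end, its FDR ran from 0.00106 to 0.319. Without obese anti–PD-1 tumor 2 Irf1 lost the call, at 0.90.

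By mean CPM, obese anti–PD-1 tumors ranked first for 7 of the 9 genes, and obese isotype tumors for Jak1 and Jak2. Nonobese anti–PD-1 tumors ranked last for 7, the exceptions being Socs1 and Jak2. Neighboring groups in these orders overlapped for every gene except Jak2, where obese isotype tumors lay above nonobese anti–PD-1 tumors, the next in order.

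Across the 12 tumors, Stat2, Irf1, Irf7, Irf8, Irf9 and Socs1 followed one another, with Pearson r of log2 CPM between 0.71 (Irf9 and Socs1) and 0.96 (Stat2 and Irf1). Socs3 was closest to Irf9, with r = 0.76. Jak1 and Jak2 had r = 0.44 with each other, and with the other 7 genes r lay between -0.08 and 0.21 for Jak1 and between -0.29 and 0.17 for Jak2. The tumors share 4 groups and differ in depth and in their mix of cells, so these values are descriptions.

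**Figure D4:**
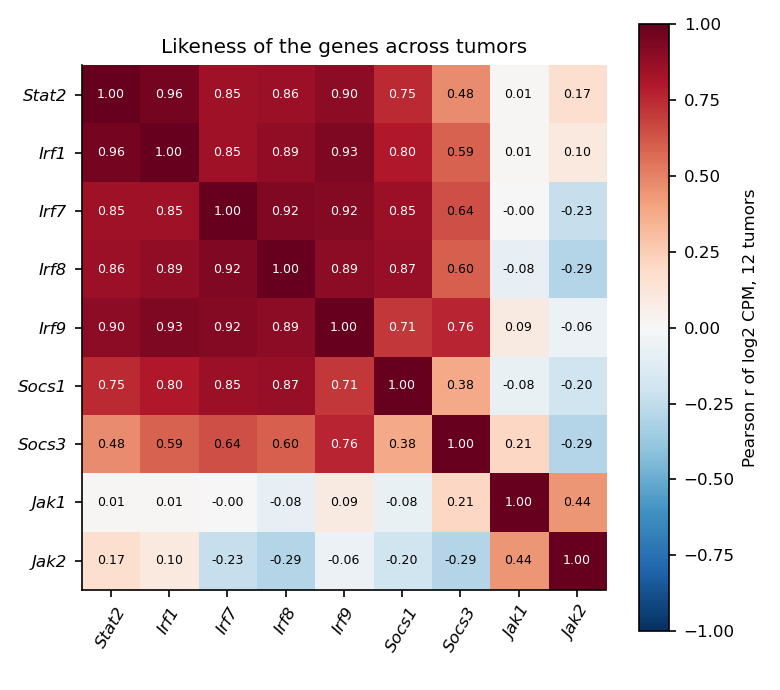
Pearson r of log2 CPM between the 9 genes over the 12 tumors. The 6 genes from Stat2 to Socs1 form a block of high values, and the rows of Jak1 and Jak2 are pale.

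Each of the 9 genes was also set against all genes tested, by Pearson r of log2 CPM over the 12 tumors. Irf8 was most closely followed by Zbp1 (r = 0.98), a nucleic acid sensor, by Tap1 (0.98), the peptide transporter for MHC class I, and by Slamf8 (0.98). Irf7 was followed by C1qa (0.97), Fmnl1 (0.96) and C1qc (0.96), of which C1qa and C1qc encode complement chains made by macrophages. Parp14 was the closest to both Stat2 and Irf1 (0.97 each), and Ube2l6, the conjugating enzyme for Isg15, to Irf9 (0.98). Socs1 was closest to Gzmc (0.94), a granzyme of cytotoxic lymphocytes, Socs3 to Il12rb1 (0.89), Jak1 to Rap1gds1 (0.90) and Jak2 to Seh1l (0.94).

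Markers of T cells, NK cells, macrophages, dendritic cells, fibroblasts, endothelium and skeletal muscle were highest in the same tumors within the obese groups, whereas those of B cells and neutrophils followed another order. The summed level of the T cell markers (8 of 9 listed are in the table) was 5.25 to 7.16 CPM in obese isotype tumors and 8.25, 18.8 and 20.02 CPM in obese anti–PD-1 tumors 1, 3 and 2, and none of the 8 was at 0 throughout either group. Of the 7 tested, 5 were called higher in the obese response (Cd3d, Cd3e, Cd3g, Cd8a and Cd8b1), whereas 1 was called lower in nonobese mice (Cd4), in which the sums were 5.56 to 8.35 CPM with isotype and 5.08 to 6.62 CPM with anti–PD-1. In the difference between the responses 6 of the 7 were called higher, with a median of 4.26 (log2).

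The macrophage markers (9 of 10 in the table, none at 0 throughout a group) summed to 188.6 to 318.8 CPM in obese isotype tumors and to 263.3, 503.2 and 510.7 CPM in obese anti–PD-1 tumors 1, 2 and 3. In nonobese mice they were at 230.6 to 499.7 CPM with isotype and 155.5 to 225.3 CPM with anti–PD-1, where 4 of 9 were called lower (C1qa, Csf1r, Fcgr1 and Mrc1). In obese mice 1 of 9 was called higher (Csf1r). In the difference between the responses 8 of 9 were called higher, with a median of 1.84 (log2), and between obese and nonobese anti–PD-1 tumors 6 of 9. Nonobese isotype tumor 2 had a macrophage sum of 499.7 CPM, close to those of obese anti–PD-1 tumors 2 and 3. It had 14.8 CPM of Irf7 and 11.6 CPM of Irf8. Those tumors had 28.0 and 30.0 CPM of Irf7 and 29.1 and 18.1 CPM of Irf8. The tumors were not alike in other cells. The T cell sum of nonobese isotype tumor 2 was 8.35 CPM, against 20.02 and 18.8 CPM. Its NK cell and dendritic cell sums were also lower, and its fibroblast, neutrophil and keratinocyte sums were higher. The part of macrophages in these levels was not tested.

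Dendritic cell markers (8 of 8 in the table, none at 0 throughout a group) summed to 7.06 to 9.07 CPM in obese isotype tumors and 7.83 to 18.0 CPM with anti–PD-1. Of the treated sums, Itgax alone gave 2.47 to 10.7 CPM and Zbtb46 3.10 to 4.72 CPM. NK cell markers (5 of 5) summed to 0.210 to 0.379 CPM and 0.776 to 7.38 CPM, with 1 of the 5 at 0 in every obese isotype tumor. Prf1 alone gave 0.705 to 5.90 CPM of the treated sums. In obese anti–PD-1 tumor 1, 3 of the 8 dendritic cell markers and 3 of the 5 NK cell markers were at 0. Adipocyte markers (5 of 5) rose from 15.0 to 22.1 CPM with isotype to 33.6 to 72.5 CPM with anti–PD-1 in obese mice, and all 5 were called higher there and in the difference between the responses. Of the 4 dendritic cell markers tested, Itgax was called higher in the obese response and in the difference, as was Prf1, the only NK cell marker tested. The adipocyte sum of obese anti–PD-1 tumor 1, at 56.9 CPM, was above that of tumor 2, at 33.6 CPM.

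Neutrophil markers (5 of 5 in the table) summed to 1.38 to 1.89 CPM in obese isotype tumors, with 2 of the 5 at 0 in all 3, and to 3.45, 3.25 and 2.55 CPM in obese anti–PD-1 tumors 1 to 3, so that tumor 1 was the highest. B cell markers (5 of 5) summed to 1.72 to 2.36 CPM with isotype and to 1.41, 1.87 and 6.16 CPM with anti–PD-1, and only tumor 3 lay above the isotype tumors. Fibroblast markers (6 of 6, none at 0 throughout a group) summed to 193.8 to 1070 CPM in obese isotype tumors and to 412.4, 1402 and 1824 CPM in obese anti–PD-1 tumors 1 to 3, without a call in that comparison. In nonobese mice they were at 581.1 to 2757 CPM with isotype and 261.2 to 527.2 CPM with anti–PD-1, and 5 of 6 were called lower (Col1a1, Col1a2, Col3a1, Dcn and Pdgfra). The same 5 were called higher in the difference between the responses. Endothelial markers (5 of 5, none at 0 throughout a group) summed to 75.8 to 146.2 CPM in obese isotype tumors and to 107.4, 155.2 and 179.1 CPM in obese anti–PD-1 tumors 1 to 3, without a call in the obese response, and 1 of the 5, Tek, was called higher in the difference. Skeletal muscle markers (5 of 5, none at 0 throughout a group) summed to 9.55 to 104.5 CPM in obese isotype tumors and to 28.1, 208.4 and 467.9 CPM in obese anti–PD-1 tumors 1 to 3. Their median log2 fold change was 2.43, and 1 of the 5, Mylpf, was called higher in the obese response and in the difference between the responses. In nonobese mice they were at 11.4 to 302.7 CPM with isotype and 6.96 to 294.3 CPM with anti–PD-1. Keratinocyte markers (4 of 4, with 2 at 0 throughout each group) summed to 0.625 to 7.76 CPM in nonobese isotype tumors and at most 0.223 CPM with anti–PD-1. In obese mice they reached at most 0.463 CPM with isotype and 0.689 CPM with anti–PD-1. Krt5, the only one tested, was called lower in nonobese mice (-4.56, log2) and between the isotype groups (-3.92), and higher in the difference (5.19). The part of all these cells in the levels of the 9 genes was not tested.

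Over the 12 tumors the log2 CPM of Irf7 had r = 0.94 with the log2 of the macrophage sum plus 1 and 0.88 with the T cell sum, and that of Irf8 had r = 0.90 and 0.89. Irf1 had r = 0.71 with the macrophage sum and 0.85 with the T cell sum, and Irf9 0.81 and 0.91. Jak1 had r = -0.02 and 0.10. With the dendritic cell sum r was 0.95 for Irf7, 0.91 for Irf8 and 0.89 for Socs1, and with the NK cell sum 0.87, 0.94 and 0.78. In obese anti–PD-1 tumors the dendritic cell sum was mostly Itgax and Zbtb46, and the NK cell sum mostly Prf1. These r values therefore need not follow the other markers of those lists. With the endothelial sum r was 0.67, 0.66 and 0.72. With the fibroblast sum r was 0.76 for Irf7, 0.69 for Irf8 and 0.73 for Socs1, and with the skeletal muscle sum it was 0.55, 0.66 and 0.67. For the same genes r was 0.67, 0.76 and 0.58 with the neutrophil sum. It was 0.67, 0.69 and 0.49 with the adipocyte sum, and 0.40, 0.20 and 0.00453 with the B cell sum. With the melanoma sum, r lay between 0.03 (Irf8) and 0.59 (Jak1) over the 9 genes.

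**Figure D5:**
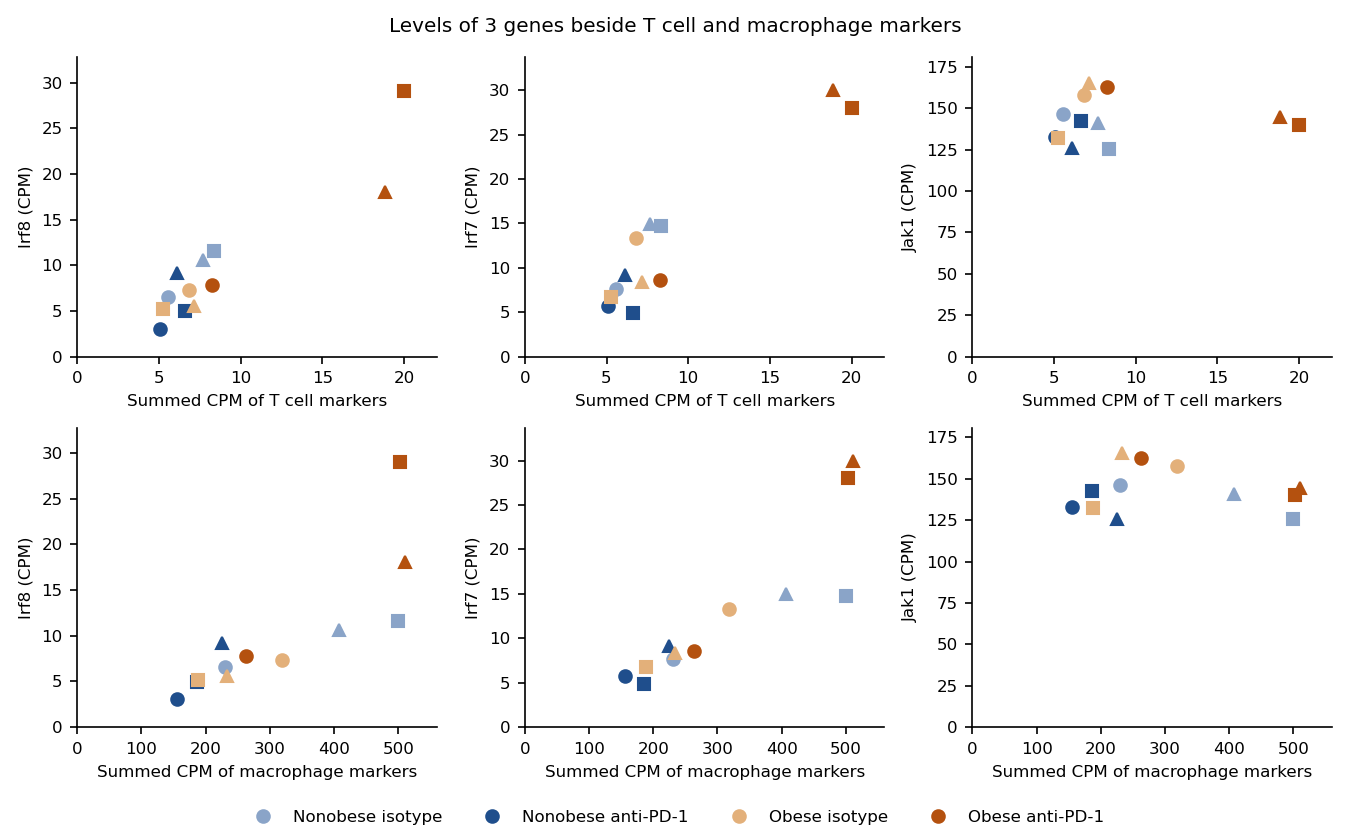
CPM of Irf8, Irf7 and Jak1 in each tumor against the summed CPM of T cell markers (upper row) and of macrophage markers (lower row), colored by group, with circles, squares and triangles for tumors 1, 2 and 3. Obese anti–PD-1 tumors 2 and 3 lie apart at the upper right for Irf8 and Irf7, and Jak1 stays between 125.6 and 165.6 CPM.

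The interferons themselves were at the edge of detection. Of 21 interferon genes listed, 19 are in the table, 16 of these had no count in any tumor, and none passed the filter. Ifng, the gene of interferon gamma, had 0, 0 and 1 counts in obese isotype tumors and 1, 12 and 6 counts in obese anti–PD-1 tumors 1 to 3. The counts in nonobese mice were 1, 0 and 2 for the isotype tumors and 0, 1 and 4 for the treated tumors. The highest counts stood in the same pair of tumors as the highest levels of Irf1, Irf7 and Irf8. Ifng was not tested, since it did not pass the filter. Ifnb1, for interferon beta, had at most 6 counts in a tumor, in obese isotype tumor 3, and 1 count in each of 2 nonobese isotype tumors.

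Genes that interferons induce were often higher in obese mice given anti–PD-1. Of 20 interferon target genes, all tested, 13 were called higher and none lower with anti–PD-1 in obese mice, with a median log2 fold change of 1.39, against 2.24% of all genes called higher. Among them Psmb9, a subunit of the immunoproteasome, rose by 2.61 ± 0.54 (SE, log2; edgeR FDR = 0.192), Cxcl9, a chemokine for T cells, by 2.36 ± 0.69 (edgeR FDR = 0.330), Ifit3, an antiviral protein, by 1.39 ± 0.22 (edgeR FDR = 0.108), and Cxcl10 by 1.21 ± 0.34 (edgeR FDR = 0.295). In nonobese mice 2 of the 20 were lower (Oasl2 and Psmb8), against 2.31% of all genes, and none higher, with a median of -0.72. With single tumors left out that count lay between 0 and 10, the 10 without nonobese anti–PD-1 tumor 3, whereas the count of 13 in obese mice lay between 12 and 18, the 18 without obese anti–PD-1 tumor 1. The difference between the responses was called higher for 18 of 20, against 4.93% of all genes, with a median of 2.24. Between obese and nonobese anti–PD-1 tumors 18 of 20 were higher, against 3.69% of all genes, and of these 7 had an edgeR FDR below 0.05. Between the isotype groups 1 of 20 was lower (0 to 2 with single tumors left out), against 1.12% of all genes.

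Partner factors of the IRF proteins showed a split. Of 7 listed, 6 were tested, and 4 were called higher in the obese response, against 2.24% of all genes, and none in the nonobese response, against 0.115% higher and 2.31% lower. These were Batf2, which pairs with Irf1 (log2 fold change 2.63 ± 0.59 SE, edgeR FDR = 0.206), Nlrc5 and Ciita, the transactivators of MHC class I and class II genes (2.01 ± 0.69 and 1.94 ± 0.77), and the lymphoid factor Ikzf1 (1.45 ± 0.61). All of them were also called in the difference between the responses, at 3.39 for Batf2, 2.23 for Nlrc5, 2.83 for Ciita and 2.56 for Ikzf1, against 4.93% of all genes called higher there. Without obese anti–PD-1 tumor 2 the count of 4 in the obese response was 1, and it was 2 without obese anti–PD-1 tumor 3, obese isotype tumor 2 or obese isotype tumor 3. In the difference between the responses the count of 4 was 2 without obese anti–PD-1 tumor 2 and otherwise 3 or 4. In nonobese mice 2 partner factors were called lower without nonobese anti–PD-1 tumor 3, and 1 without nonobese isotype tumor 1 or without obese anti–PD-1 tumor 1. Batf and Batf3, which pair with Irf4 and Irf8, were not called, with differences of 0.13 and 0.23.

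Few genes of the rest of the pathway were called, and the shares over all genes were 2.24% higher and 0.206% lower in the obese response and 4.93% higher and 0.832% lower in the difference between the responses. Of 8 receptor and kinase genes beside Jak1 and Jak2, 1 was called with anti–PD-1 in obese mice, Ifnlr1, a chain of the type III interferon receptor, which was lower at a log2 fold change of -1.22 ± 0.38 (SE; edgeR FDR = 0.412) and was also called lower in the difference, at -1.64. Of the 18 other inhibitors, 1 was called, the deubiquitylase-like Usp18, which removes Isg15 and restrains the type I receptor, at 1.18 ± 0.29 higher (edgeR FDR = 0.220). It was called higher in the difference as well, at 1.76, and stood at 1.80 between obese and nonobese anti–PD-1 tumors with an edgeR FDR of 0.0264. Of the 5 other IRF genes none was called in obese mice, and Irf5, a factor of macrophages and B cells, was called in the difference between the responses at 1.45 ± 0.51 (edgeR FDR = 0.258). Of the 6 other STAT genes none was called in the obese response, and 1 was called in the difference. No gene of these 4 lists was called in nonobese mice.

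Several of the 9 genes share sequence with annotated neighbors. All 7055 exon bases of Irf8 lie within the span of Gm20388, a longer gene model on the same strand that was not analysed here. Of the exon bases of Irf1, 135 lie within the span of Gm17334, and of those of Irf7, 45 lie within Phrf1, both on the opposite strand, while 123 of those of Irf9 lie within Rnf31 on the same strand. Whether strand was used in counting was not given in the sources used here.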

How the data were processed

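RNA of 12 tumors was sequenced as libraries from a strand-marking mRNA kit. The deposited values are raw counts per gene, which the authors made with STAR 2.7.0f on mm10 and HTSeq 0.9.1 and tested with edgeR 3.28.1, per the labels and the study's methods. The annotation and strand setting were not given in the sources used here. Columns were matched to samples by library name.

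Counts were scaled by TMM, filtered with filterByExpr and fitted with glmQLFit (edgeR 4.0.16, R 4.3.3) with a mean for each of 4 groups (8 residual degrees of freedom), and 5 contrasts were tested two-sided with glmQLFTest. P-values were adjusted over all 13095 genes. CPM values use TMM library sizes, and r was taken on log2 CPM with a prior count of 2. The fit was tested on simulated counts with known changes. All 9 genes are named. Genes of other lists were named from those past the thresholds, not all of them by name, or, for the lists of partner factors and interferons, where their role bears on the 9. The 9 genes, the lists and the markers were chosen with earlier results of these data known.

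The same replicate number did not mark one mouse. Between the anti–PD-1 groups, same-numbered tumors deviated together (r of 0.111 to 0.443 in 3 pairs, mean 0.302 against -0.147 for other pairs). In nonobese mice the same-numbered r ran from 0.00065 to 0.548, with a mean of 0.272 against -0.137. In obese mice and between the isotype groups the lowest r was -0.264 and -0.181, with means of -0.0527 and -0.0357. Counts of interferon target genes and partner factors with single tumors left out were added after seeing the data. Alternatives were DESeq2 1.42.0, 2 other scalings, 2 other filters, a robust prior, the newer form of glmQLFit, a model of only the compared tumors, a replicate block and leaving out each tumor. Figures were drawn with matplotlib.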

Additional observations from a re-analysis of the deposited data

Results flagged for a closer look

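The response to anti–PD-1 differed between obese and nonobese mice for Irf7 and Irf8, by a test of the difference itself (the interaction term in edgeR). For Irf7 the obese response exceeded the nonobese one by 2.14 on the log2 scale (edgeR FDR = 0.168), from 1.23 in obese and -0.92 in nonobese mice. For Irf8 the difference was 2.34 (edgeR FDR = 0.142), from 1.60 and -0.74. Neither passed an FDR of 0.05, and in each case obese anti–PD-1 tumor 1 lay apart from tumors 2 and 3 of its group.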

How the results depend on the processing

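The number of the 9 genes called was recomputed under 21 alternatives. It stayed within 1.5 times the main count in 97 of 104 cases, and the 7 others each left out 1 tumor. Leaving out each tumor in turn gave 0 to 2 genes in nonobese mice, 1 to 4 in obese mice, 0 between the isotype groups, 2 to 5 between the anti–PD-1 groups and 2 to 5 in the difference between the responses. The 7 cases were 1 and 2 genes in nonobese mice (without nonobese isotype replicate 1 and nonobese anti–PD-1 replicate 3), 1 gene in obese mice (without obese isotype replicate 2), and 5 genes in each of the last 2 comparisons without nonobese anti–PD-1 replicate 3 or obese anti–PD-1 replicate 1. No called gene changed sign. Irf8 kept its call in the obese response under every alternative, with a log2 fold change of 1.12 to 1.98 and an FDR of 0.0249 to 0.870, and Irf7 and Irf8 kept theirs in the difference, at 1.88 to 2.54 and 1.86 to 2.87. The obese call of Irf1 was lost under a robust prior, where it missed the P threshold (edgeR FDR = 0.681). With the replicate number as a block, the counts were 0, 2, 0, 3 and 3 genes in the 5 comparisons in the order above: Irf1 lost its obese call (log2 fold change 0.87, under the fold threshold) and gained one in the difference (1.13, edgeR FDR = 0.391), and no other call changed with the pairing. The numbers mark no shared mouse. Irf1 also gained the call in the difference with the newer form of glmQLFit (1.19) and under the filters of 10 counts in every tumor (1.25) and of 1 count over all (1.16). The cause of these changes was not tested. With 3 tumors a group, an exact permutation test could reach no p below 0.1. Socs1 had the fewest counts, as few as 8 in a tumor, and the part of depth in its calls was not tested.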
